A study of Mus musculus with 6 samples.

Results

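The 10 genes followed here, in hematopoietic stem cells (HSCs) of mouse bone marrow (BM), set how a cell handles peroxidised lipid and makes glutathione. They were chosen by symbol, and all 10 were found among the 21878 gene rows deposited for each library: Acsl4 and Lpcat3, which promote ferroptosis, and Gpx4, Aifm2, Slc7a11, Gclc, Gclm, Gss, Gsr and Txnrd1, which protect from it. The 6 RNA-seq libraries came from wild-type (WT) mice, 3 from controls and 3 from mice treated with IGF1. Per the study's methods the mice were C57BL/6, IGF1 was recombinant mouse protein given subcutaneously at 200 µg/kg, and HSCs were sorted as Lineage-Sca-1+c-Kit+Flt3-CD34- cells. The study's legends place the libraries at day 1 after IGF1, with vehicle given to the controls. The mice were background-matched and age-matched, and their age is not given in the sources used here. The labels conflict, since the extraction text speaks of irradiated mice while the treatment label names IGF-1, and IGF1 was taken. Nothing in the labels says whether the 3 libraries of a group came from separate animals, pools or 1 pool, so p-values measure only the spread between these samples, which may be technical.

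Ferroptosis is a form of cell death driven by iron-dependent peroxidation of polyunsaturated phospholipids. ACSL4 activates polyunsaturated fatty acids to their coenzyme A esters and LPCAT3 places them in phospholipids, which supplies the oxidisable substrate. GPX4 reduces phospholipid hydroperoxides with glutathione, and AIFM2 (also called FSP1) reduces coenzyme Q to a lipid radical trap. The transporter SLC7A11 imports cystine, the ligase of GCLC and its modifier GCLM joins cysteine to glutamate, GSS adds glycine, and GSR returns oxidised glutathione to its reduced form, while TXNRD1 does so for thioredoxin. HSCs are known as sensitive to oxidative stress, and several of these protective genes are known targets of the transcription factor NRF2.

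GPX4 and TXNRD1 are selenoproteins, in which an in-frame TGA codon, normally a stop, is read as selenocysteine, the residue at their active sites. The coding stretches around those codons are shown because they mark the pair of selenoproteins among these genes. They are from GENCODE M21 transcripts on GRCm38, with the TGA codon in capitals.
Gpx4-202, exon 3 of 7, codon at chr10:80054737-80054739, plus strand: gtggcctcgcaaTGAggcaaaactgacgta
Txnrd1-201, exon 14 of 14, codon at chr10:82896037-82896039, plus strand: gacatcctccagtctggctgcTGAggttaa
The antioxidant response element, through which NRF2 acts, was searched as the letters TGACNNNGC on both strands of promoters from 250 bases before to 50 bases after each RefSeq start site (GRCm38.p6). RefSeq promoters were matched for 8 of the 10 genes (Gclc and Gsr were not matched), and 2 of the 8 (25%) held the letters in at least 1 promoter, against 13.99% of 27025 genes and 12.39% of 32851 promoters of the same length. The stretches of 30 bases around those matches are shown with the matched letters in capitals, both in reverse orientation. The first matched base lay 134 bases before the start site in Gclm and 92 bases before it in Txnrd1.
Gclm promoter, chr3:122245413-122245442, plus strand: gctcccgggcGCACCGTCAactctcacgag
Txnrd1 promoter, chr10:82859104-82859133, plus strand: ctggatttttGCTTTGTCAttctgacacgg
A match of letters is a description of these windows and not a binding site.

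The authors deposited FPKM values (fragment counts corrected for gene length and library depth), which are meant to compare libraries and genes per length. Their sums differed, at 466619, 635111 and 466135 in control replicates 1, 2 and 3 and 677826 to 680285 with IGF1. An equal FPKM is therefore a smaller share of the sum in an IGF1 library than in control replicates 1 and 3. The values of a gene were whole multiples of 1 step, which gave the reads (or read pairs) behind each value, 11206800 to 15973834 reads per library in all. Intervals below are 95% Poisson intervals of those reads and cover counting error only. Control replicate 2 stood apart. Over genes with at least 20 reads in a pair of libraries, chi-squared per gene was 1.52 between control replicates 1 and 3 and 1.69 to 1.89 between IGF1 libraries, near the 1 that sampling noise alone gives but above it in every pair, so each library was counted as 1 sample. It was 229 to 231 between control replicate 2 and the other controls, but 24.6 to 28.0 between control replicate 2 and the IGF1 libraries. The fit of each gene followed here that was tested, and the calls in each related list, are therefore given with and without control replicate 2. Other values are with all 6 libraries unless said otherwise. Of the sort genes, Kit in control replicate 2 was near the IGF1 libraries. It stood at 105, 31.4 and 104 FPKM in control replicates 1, 2 and 3, against 24.2 to 24.6 FPKM with IGF1. Ly6a (Sca-1) had 219, 615 and 231 FPKM against 374 to 387 FPKM, with control replicate 2 above all other libraries. RNA of Cd34 (230 to 640 FPKM over the 6 libraries) and Flt3 (117 to 188 FPKM), whose proteins the sort excluded, was present in every library, and Mpo, a granulocyte precursor gene, had 1613 to 1705 FPKM. The HSC genes Slamf1 and Mecom were low, at 0.736 to 2.41 FPKM and 0.672 to 4.10 FPKM.

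The comparison asks how these genes differ in HSCs after IGF1 as against vehicle. Of the 10 genes, 9 passed the filter of at least 1 FPKM in at least 3 libraries and were tested with limma on log2(FPKM + 1) together with all 10449 genes that passed. A call needed more than a 2-fold difference together with an adjusted p (Benjamini-Hochberg) under 0.05. None of the 9 met this, where 1.98% of all genes were called higher and 4.63% lower. At an unadjusted p under 0.05, Gpx4 was higher and 5 genes were lower (Lpcat3, Gclc, Gclm, Gsr and Txnrd1), beside 19.0% of all genes higher and 34.4% lower. The 3 IGF1 libraries lay outside the range of the controls in 5 of the 9 tested genes (55.6%), above it in Gpx4 and below it in Lpcat3, Gclc, Gsr and Txnrd1, and so they did in 59.4% of all genes (21.9% above and 37.4% below). A 2-sided exact permutation test gave p = 0.1 for each of these 5 genes, the smallest that 3 libraries against 3 allow. When control replicate 2 was left out, Gpx4 was called higher and Lpcat3, Gclc, Gsr and Txnrd1 were called lower, where 12.3% of all genes were called higher and 20.6% lower. These are whole-population values, in which fewer cells of a type and less RNA per cell cannot be told apart.

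**Figure D1:**
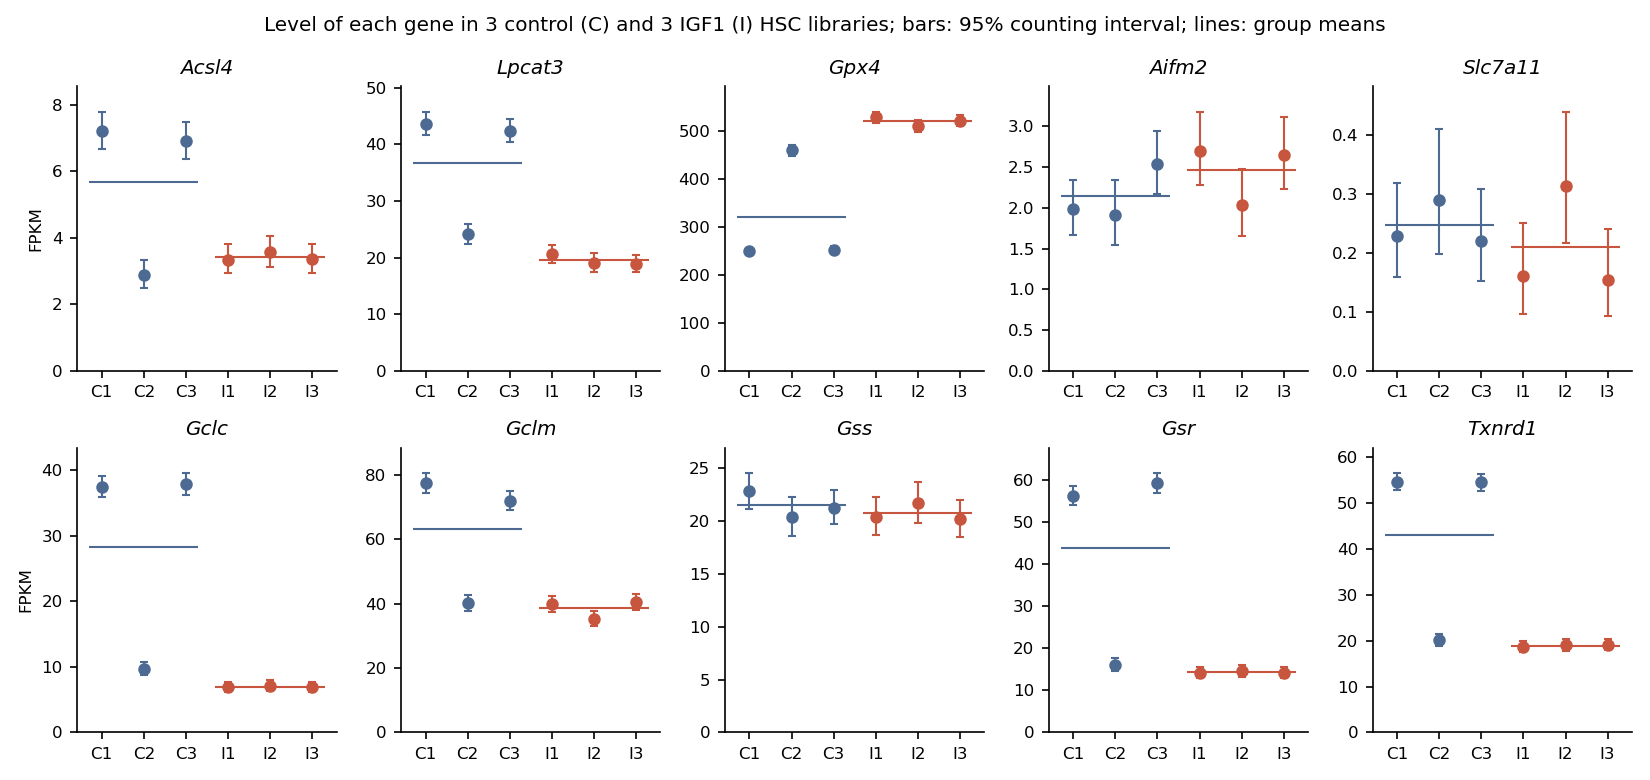
Level of each gene in FPKM (vertical axes, each from 0) in control replicates 1 to 3 (C1 to C3, blue) and IGF1 replicates 1 to 3 (I1 to I3, red); points are single libraries, bars 95% counting intervals from the recovered reads and lines group means. Control replicate 2 lies near the IGF1 libraries for Acsl4, Gclm, Gsr and Txnrd1. The groups overlap in Acsl4, Gclm, Gss, Aifm2 and Slc7a11. No gene passed the test with all 6 libraries. The direction of Gpx4 and Gss turned when trends with transcript length and GC content were removed.

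Acsl4 (ENSMUSG00000031278.12, chrX:142317993-142390535, minus strand), the acyl-CoA synthetase that sets how much polyunsaturated lipid a membrane holds, was low in these cells. Controls 1, 2 and 3 gave 7.20, 2.89 and 6.90 FPKM, and IGF1 replicates 1, 2 and 3 gave 3.34, 3.56 and 3.35 FPKM, an order kept below, from 185 to 640 reads. Control replicate 2 was the lowest of all 6 libraries, so the groups overlapped, and the other 2 controls were the highest. The mean was 5.66 ± 2.41 FPKM (SD, n = 3) in controls and 3.42 ± 0.12 FPKM (SD, n = 3) with IGF1, a log2 difference of -0.51 (standard error 0.30, adjusted p = 0.195 from limma). Leaving out control replicate 2 gave -0.86 (standard error 0.07, adjusted p = 6.8e-07 from limma), which is under the 2-fold threshold.

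Lpcat3 (ENSMUSG00000004270.13, chr6:124663027-124704418, plus strand), the acyltransferase acting after ACSL4, was expressed at a higher level per length than Acsl4 in every library. It had 43.7, 24.1 and 42.4 FPKM in controls and 20.6, 19.1 and 19.0 FPKM with IGF1, from 544 to 1759 reads. Every IGF1 library was below every control, with control replicate 2 the lowest control. The mean was 36.7 ± 10.9 FPKM in controls and 19.6 ± 0.91 FPKM with IGF1 (SD, n = 3 each), a ratio of 0.533 and a log2 difference of -0.83 (standard error 0.24, adjusted p = 0.0532 from limma). With only control replicates 1 and 3 it was called lower (log2 difference -1.10, adjusted p = 1.1e-08 from limma). Lpcat3 overlaps Emg1 on the opposite strand, and since the strand used in counting is not given in the sources used here, reads of the overlap could not be assigned.

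Gpx4 (ENSMUSG00000075706.10, chr10:80047166-80056439, plus strand), the phospholipid hydroperoxidase, was by far the most abundant of the 10 genes, with a mean level at the 97.6th percentile of the tested genes. It had 249, 459 and 252 FPKM in controls and 527, 510 and 520 FPKM with IGF1, from 4960 to 8324 reads. All IGF1 libraries were above all controls, and control replicate 2 was nearer to the IGF1 libraries than to the other controls. The mean was 320.2 ± 120 FPKM in controls and 519 ± 8.87 FPKM with IGF1 (SD, n = 3 each), a ratio of 1.62. The log2 difference was 0.76 (standard error 0.26, adjusted p = 0.0704 from limma) with all libraries and 1.05 (adjusted p = 1.8e-10 from limma, called higher) without control replicate 2, but it turned to -0.12 (adjusted p = 0.259) once trends with transcript length and GC content were removed. A processed copy, Gpx4-ps2, is annotated in the genome and has no row of its own, so reads shared with it could not be separated.

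Aifm2 (ENSMUSG00000020085.15, chr10:61715263-61739260, plus strand), which acts beside GPX4 through coenzyme Q, was low and had overlapping groups. It had 1.98, 1.91 and 2.53 FPKM in controls and 2.70, 2.03 and 2.65 FPKM with IGF1, from 95 to 176 reads. The counting intervals of the 6 libraries overlapped as well. The log2 difference was 0.14 (standard error 0.14, adjusted p = 0.417 from limma) and 0.08 (adjusted p = 0.486) without control replicate 2. It was larger with length and GC trends removed, 0.38 (adjusted p = 0.0818 from limma) with all libraries and 0.44 (adjusted p = 0.0045) without control replicate 2, and under 75th percentile scaling, 0.32 and 0.33 (adjusted p = 0.0191) respectively, in each case under 2-fold. Aifm2 overlaps H2afy2 on the opposite strand, with the same uncertainty as Lpcat3.

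Slc7a11 (ENSMUSG00000027737.10, chr3:49892526-50443614, minus strand), the cystine importer that feeds glutathione synthesis, was nearly silent. It had 0.228, 0.290 and 0.220 FPKM in controls and 0.160, 0.314 and 0.154 FPKM with IGF1, from 19 to 35 reads in a library. The highest and the lowest values were both in IGF1 libraries, and the groups overlapped. It did not pass the filter on low values. When no filter was applied, the log2 difference was -0.05 (adjusted p = 0.570 from limma), on a scale that understates differences at such levels. The ratio of the means was 0.850, and the counting intervals of all 6 libraries overlapped.

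Among the enzymes that make glutathione, Gclc (ENSMUSG00000032350.9, chr9:77754535-77794485, plus strand), the catalytic subunit of the rate-limiting ligase, had the largest log2 difference of the 9 tested genes with all 6 libraries. It had 37.4, 9.69 and 37.8 FPKM in controls and 6.88, 7.07 and 6.88 FPKM with IGF1, from 281 to 2139 reads. Every IGF1 library was below every control, and control replicate 2 was far nearer to the IGF1 libraries. The mean was 28.3 ± 16.1 FPKM in controls and 6.94 ± 0.11 FPKM with IGF1 (SD, n = 3 each), a ratio of 0.245 and a log2 difference of -1.66 (standard error 0.51, adjusted p = 0.0582 from limma). Against control replicates 1 and 3 alone the log2 difference was -2.28 (adjusted p = 7.5e-11 from limma), and Gclc was called lower there. It was also called lower when the length and GC trends were removed in addition (log2 difference -1.61).

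Gclm (ENSMUSG00000028124.15, chr3:122245557-122270732, plus strand), the modifier subunit of the same ligase and one of the 2 genes with the response element letters, had 77.4, 40.2 and 71.9 FPKM in controls. With IGF1 it had 40.0, 35.4 and 40.4 FPKM, from 830 to 2571 reads over all libraries. Control replicate 2 lay inside the range of the IGF1 libraries, while the other controls were the highest. The log2 difference was -0.64 (standard error 0.26, adjusted p = 0.0902 from limma), and -0.94 (adjusted p = 1.7e-07) without control replicate 2, under the 2-fold threshold. The 2 subunits did not keep 1 proportion. The ratio of Gclm to Gclc in FPKM was 2.07, 4.15 and 1.90 in controls and 5.81, 5.0 and 5.88 with IGF1, higher in every IGF1 library than in every control.

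Gss (ENSMUSG00000027610.17, chr2:155563181-155592810, minus strand), the enzyme of the last step, was the most even of the synthesis genes. It had 22.8, 20.4 and 21.2 FPKM in controls and 20.4, 21.7 and 20.2 FPKM with IGF1, from 475 to 738 reads. The groups overlapped and control replicate 2 did not stand apart. The log2 difference was -0.05 (standard error 0.10, adjusted p = 0.704 from limma), and -0.08 (adjusted p = 0.165) without control replicate 2. With all libraries it turned to 0.27 under quantile normalization and to 0.20 under scaling to the 75th percentile. It was 0.43 once the length and GC trends were removed, with no call under any of them. Relative to Gss, the FPKM of Gclc was 1.64, 0.476 and 1.78 in controls and 0.337, 0.327 and 0.341 with IGF1, so the first enzyme of the pathway was above the last in control replicates 1 and 3 only. Gss overlaps Acss2 and 2 antisense genes on the opposite strand.

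Both reductases were lower in every IGF1 library. Gsr (ENSMUSG00000031584.16, chr8:33652523-33698163, plus strand), which regenerates glutathione, had 56.2, 16.1 and 59.2 FPKM in controls and 14.1, 14.5 and 14.2 FPKM with IGF1, from 440 to 2549 reads. The lowest control, replicate 2, was within 2 FPKM of the IGF1 libraries, and the mean of the others was 4.03 times that of the IGF1 libraries. The mean was 43.8 ± 24.1 FPKM in controls and 14.3 ± 0.21 FPKM with IGF1 (SD, n = 3 each), a log2 difference of -1.35 (standard error 0.49, adjusted p = 0.0761 from limma). It was -1.94 (adjusted p = 1.2e-10 from limma, called lower) when control replicate 2 was left out, and -1.46, also called lower, when the length and GC trends were removed as well.

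Txnrd1 (ENSMUSG00000020250.10, chr10:82833951-82897712, plus strand), the selenoprotein whose selenocysteine codon is printed above and the second gene with the response element letters, had 54.6, 20.1 and 54.5 FPKM in controls. With IGF1 it had 18.6, 19.0 and 19.0 FPKM, from 866 to 3531 reads over all libraries. The IGF1 libraries were below the controls by a narrow margin from control replicate 2 and a wide one from the others. The mean was 43.1 ± 19.9 FPKM in controls and 18.9 ± 0.23 FPKM with IGF1 (SD, n = 3 each), a log2 difference of -1.02 (standard error 0.39, adjusted p = 0.0824 from limma). Leaving out control replicate 2 gave -1.48 (adjusted p = 3.3e-10 from limma, called lower), and removing the length and GC trends too gave -0.91, not past 2-fold. Txnrd1 overlaps Eid3 on its own strand and other genes on the opposite one. Gpx4 and Txnrd1, both dependent on selenocysteine, thus had log2 differences of opposite sign, 0.76 and -1.02, neither of them called, and the sign of Gpx4 turned when length and GC trends were removed.

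**Figure D2:**
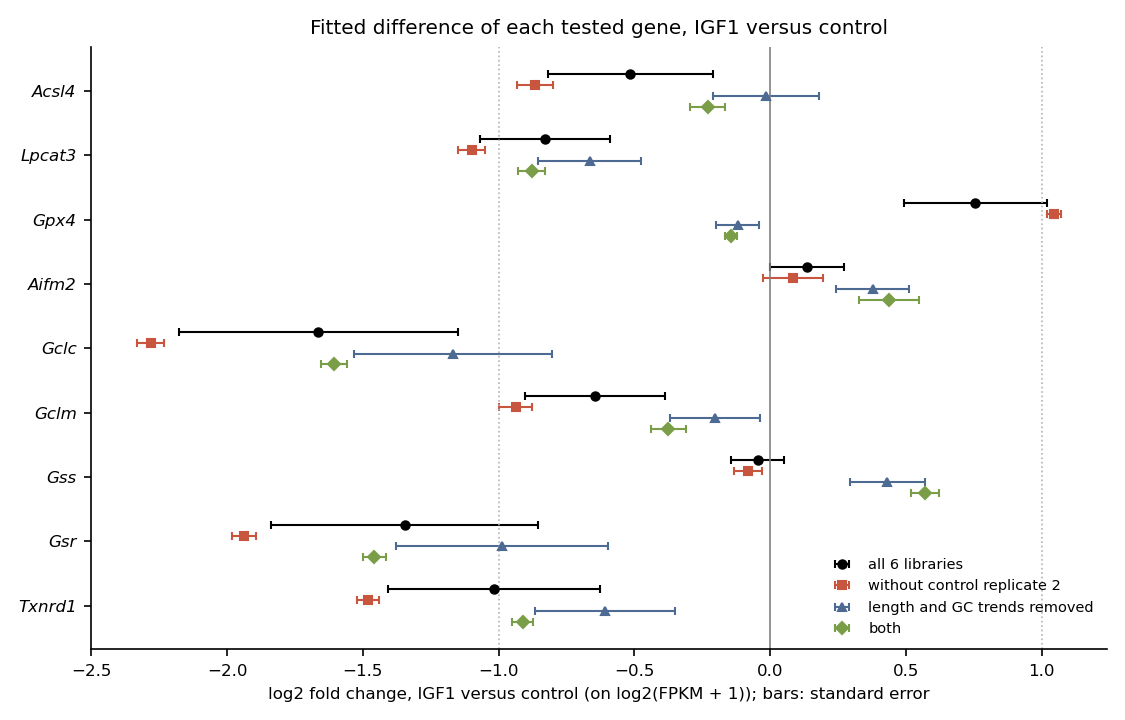
Fitted log2 difference of each of the 9 tested genes, IGF1 versus control (horizontal axis, log2(FPKM + 1) scale), with standard errors as bars; dotted lines mark 2-fold. Black circles use all 6 libraries, red squares leave out control replicate 2, blue triangles remove length and GC trends and green diamonds do both. Gclc, Gsr, Txnrd1 and Lpcat3 lie below 0 in all 4, Gpx4 lies on both sides of 0 (0.76 and 1.05 against -0.12 and -0.14), and so does Gss.

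Protective and promoting genes did not separate by direction. Both promoting genes had negative log2 differences, of -0.83 and -0.51, and of the 7 protective genes tested 5 were negative and 2 positive (Gpx4 and Aifm2, with Gpx4 negative and Gss positive once length and GC trends were removed). The median over the 9 tested genes was -0.64, beside -0.18 over all genes tested. With control replicate 2 left out these medians were -0.94 and -0.24, and with length and GC trends removed they were -0.20 and -0.04. Scaling to the 75th percentile moved the median of all genes to 0.04 and that of the 9 genes to -0.39. Under that scaling and without control replicate 2, 1 gene was called higher (Gpx4, log2 difference 1.39) and 3 lower (Gclc, Gsr and Txnrd1), where 18.0% of all genes were called higher and 11.8% lower. Relative to all genes, Gpx4 was 0.93 higher on the log2 scale. The ratio of Gpx4 to Acsl4 in FPKM was 34.7, 159 and 36.6 in controls and 158, 143 and 155 with IGF1, so that control replicate 2 lay above all IGF1 libraries and the groups overlapped.

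The order of the 10 genes by level also differed between the groups. With IGF1 the means ran from Gpx4 (519 FPKM) over Gclm (38.6 FPKM), Gss (20.7 FPKM), Lpcat3 (19.6 FPKM), Txnrd1 (18.9 FPKM), Gsr (14.3 FPKM), Gclc (6.94 FPKM), Acsl4 (3.42 FPKM) and Aifm2 (2.46 FPKM) to Slc7a11 (0.209 FPKM). Among these the ranges of Gss and Lpcat3 overlapped, as did those of Lpcat3 and Txnrd1, and all other neighbours were separate. In controls Gss (21.5 FPKM) stood below Gsr, Txnrd1, Lpcat3 and Gclc (28.3 FPKM), as it did in control replicates 1 and 3. In control replicate 2 these genes had the order of the IGF1 means, except that Lpcat3 (24.1 FPKM) was above Gss (20.4 FPKM), as it also was in IGF1 replicate 1.

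Control replicate 2 was placed for each tested gene on a scale from 0 at the mean of the other controls to 100 at the mean of the IGF1 libraries. Lpcat3 was at 73.6, Gclc at 81.2, Gpx4 at 83.0, Gsr at 91.8, Gclm at 93.6, Txnrd1 at 94.2 and Acsl4 at 121. Gss, at 131, and Aifm2, at -187, hardly differed between the ends of this scale, so their positions say little and they are not plotted. The 3438 genes called without this library had a median of 80.1 and a range from the 25th to the 75th percentile of 67.7 to 91.4. Lpcat3, Gclc and Gpx4 were within that range, and Gsr, Gclm, Txnrd1 and Acsl4 were above it. Whether it is a mislabelled or mixed sample was not tested, and it was kept in its labelled group.

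**Figure D3:**
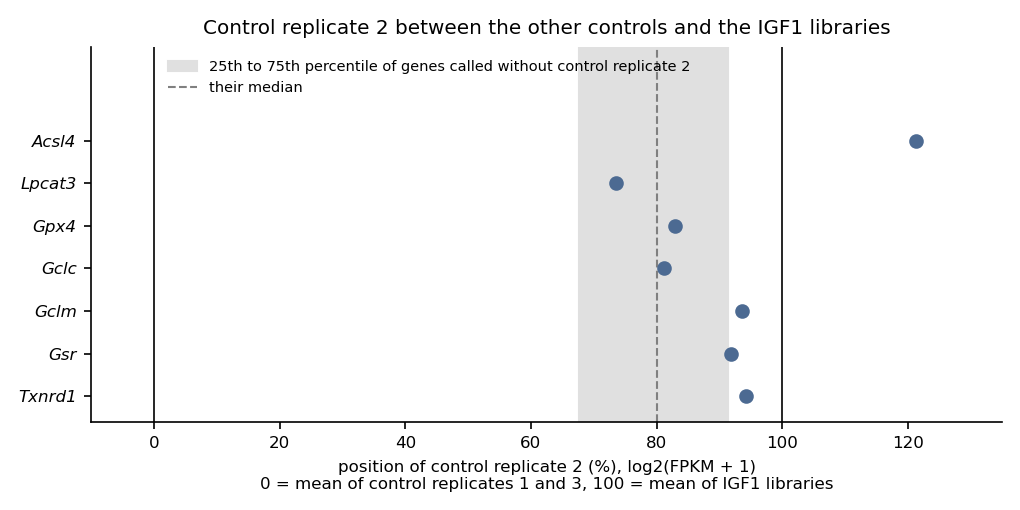
Position of control replicate 2 in percent on the log2(FPKM + 1) scale (horizontal axis), where 0 is the mean of control replicates 1 and 3 and 100 the mean of the IGF1 libraries; each point is 1 gene, and the grey band and dashed line are the 25th to 75th percentile and median of 3438 genes called without this library. The points of the 7 genes shown run from 73.6 for Lpcat3 to 121 for Acsl4, and Gss and Aifm2 are not shown.

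The difference between the groups moved with transcript length and base composition over all genes, and these genes differ in both. Over 5 equal groups of genes by GC content, the median log2 difference went from -0.53 in the lowest (31.0% to 43.8% GC) to 0.25 in the highest (55.5% to 72.8% GC). By length it was 0.38 in transcripts of 107 to 1890 bases, -0.42 in those of 2811 to 3746 bases and -0.12 in those of 5022 bases or more, the group of Acsl4 and Gclm. Gpx4, at 995 bases and 60.2% GC, is in the shortest and the most GC-rich group. Acsl4, at 5280 bases, and Gclm, at 5589 bases, have 39.0% and 42.1% GC, in the group lowest in GC. Gclc, Gsr, Txnrd1 and Lpcat3 lie between, with 2373 to 3622 bases and 47.7% to 52.9% GC. With these trends removed the log2 differences were -1.17 for Gclc (adjusted p = 0.0659 from limma), -0.99 for Gsr (0.0985), -0.66 for Lpcat3 (0.0584), -0.61 for Txnrd1 (0.112), -0.20 for Gclm (0.338), -0.01 for Acsl4 (0.955) and 0.38 for Aifm2 (0.0818). No gene of the 9 was called there, where 1.55% of all genes were called higher and 1.49% lower. With control replicate 2 left out as well, 0 of the 9 were called higher and 2 lower (Gclc and Gsr), beside 11.4% and 9.25% of all genes. The part of length and GC content in these differences was not tested beyond this removal.

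**Figure D4:**
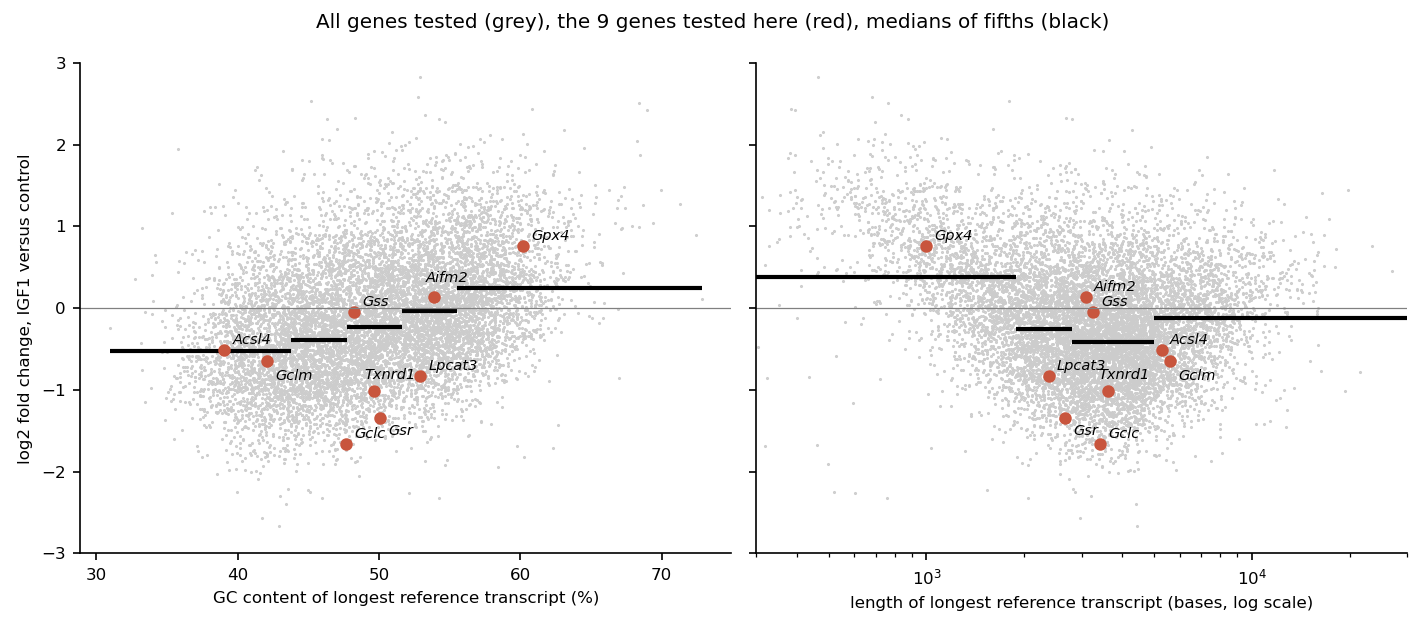
Log2 difference, IGF1 versus control (vertical axis), against GC content in percent (left) and length in bases on a log scale (right) of each gene's longest reference transcript; grey points are genes tested, red points the 9 genes described here and black bars the medians of 5 equal groups of genes, which run from -0.53 to 0.25 with GC content. The axes leave out 1 gene beyond 3 on the log2 scale and 6 genes shorter or longer than the length axis.

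The profiles of Gpx4 and Acsl4 over the 6 libraries were shared by many other genes. Likeness was measured as the root mean square distance of centred log2(FPKM + 1) values over the 6 libraries, among 10448 other genes. Nearest to Gpx4 were Drc7, Sys1 and Tmem223 (distances of 0.015, 0.016 and 0.018), and 361 genes lay within 0.1. Nearest to Acsl4 were Axin1, Pank2 and Pttg1ip (0.022, 0.024 and 0.027), and 241 genes lay within 0.1.

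Beside the 10 genes, 7 lists of related genes were counted. Among 19 tested regulators and targets of NRF2, none was called, beside 1.98% of all genes called higher and 4.63% lower. At an unadjusted p under 0.05, 3 were higher and 6 lower, beside 19.0% and 34.4% of all genes, and the median was -0.08. Without control replicate 2, 3 were called higher and 3 lower, beside 12.3% and 20.6% of all genes. Nfe2l2, which encodes NRF2, had 51.0, 19.4 and 50.2 FPKM in controls and 13.6, 14.3 and 14.6 FPKM with IGF1, a log2 difference of -1.32 (adjusted p = 0.0525 from limma), and was named after its value was seen. The smallest p-values were those of the small MAF gene Maff (log2 difference 0.93, adjusted p = 0.0287), the glutathione conjugate exporter Abcc1 (-0.46, 0.0412) and the pentose phosphate enzyme Pgd (-0.49, 0.0430), all from limma and under 2-fold. Without control replicate 2, Nfe2l2 was called lower (log2 difference -1.77, adjusted p = 2.7e-10 from limma) and Maff higher (1.05, 3.9e-07). With length and GC trends removed, Nfe2l2 was -0.88, Maff 0.72, Abcc1 -0.47 and Pgd -0.04. So the NRF2 list held values on both sides of 0.

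Of 21 tested other suppressors of ferroptosis, which make coenzyme Q, tetrahydrobiopterin or other radical traps, 1 fell and none rose as called. Over all genes 4.63% were called lower and 1.98% higher. At an unadjusted p under 0.05, 10 (beside 34.4% of all genes) were lower and none (beside 19.0%) higher, and the median was -0.47. The gene that fell was Pdss1, which builds the tail of coenzyme Q, with 11.5, 6.83 and 10.6 FPKM in controls and 3.79, 3.69 and 2.98 FPKM with IGF1 (log2 difference -1.22, adjusted p = 0.0322 from limma). With length and GC trends removed it was -0.79, under 2-fold. The coenzyme Q methyltransferase gene Coq5 (-0.60, adjusted p = 0.0363 from limma) was under 2-fold. Both had every IGF1 library below every control, as did 37.4% of all genes. Without control replicate 2, 5 of this list were called lower and none higher, beside 20.6% and 12.3% of all genes.

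Of 18 tested genes that make or oxidise polyunsaturated and ether phospholipids, 2 (beside 4.63% of all genes) were called lower and none (beside 1.98%) higher. At an unadjusted p under 0.05, 11 were lower and 2 higher, where 34.4% and 19.0% of all genes were, and the median was -0.64. Without control replicate 2, 8 were called lower and 1 higher, beside 20.6% and 12.3% of all genes. Far1, which makes the fatty alcohol of ether lipids, had 34.2, 17.7 and 33.7 FPKM in controls and 12.3, 12.5 and 11.6 FPKM with IGF1 (log2 difference -1.11, adjusted p = 0.0434 from limma). Por, the electron donor of P450 enzymes that can start lipid peroxidation, had 82.9, 39.6 and 83.9 FPKM against 29.4, 29.8 and 27.4 FPKM (-1.15, adjusted p = 0.0481). With length and GC trends removed Far1 was -0.58, under 2-fold, and Por was -1.16. In both, the lowest control was replicate 2. The fatty acid elongase gene Elovl5 (-0.95, adjusted p = 0.0367 from limma) and the phospholipase gene Pla2g6 (0.56, 0.0369) were under 2-fold, on opposite sides.

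None was called among 17 tested genes that use, degrade or export glutathione or among 10 of the thioredoxin system. Over all genes 1.98% were called higher and 4.63% lower. The first list had 3 higher and 8 lower at an unadjusted p under 0.05 and a median of -0.36. The second had none higher and 5 lower and a median of -0.37, where 19.0% of all genes were higher and 34.4% lower. Without control replicate 2, each list had 1 called higher and 1 lower, beside 12.3% and 20.6% of all genes. In the first list the smallest p-values were those of Chac2, a glutathione-degrading enzyme (log2 difference -0.98, adjusted p = 0.0300 from limma), Abcc1, and Ahcy of the methionine cycle (-0.40, 0.0447). In the second they were those of Txnl1 (-0.43, adjusted p = 0.0439 from limma), Glrx3 (-0.42, 0.0449) and the mitochondrial peroxiredoxin gene Prdx3 (-0.64, 0.0484). With length and GC trends removed Txnl1 turned to 0.20 and Glrx3 to 0.16, while Chac2 was -0.89, Ahcy -0.14 and Prdx3 -0.58. None was also called among 11 genes of selenocysteine insertion, where 1 was higher and 4 lower at an unadjusted p under 0.05 (median -0.47). Without control replicate 2 none of them was called higher and 3 were called lower. With all libraries Trnau1ap (-0.51, adjusted p = 0.0335 from limma) and Secisbp2l (-0.52, 0.0410) were lower. Pstk, the kinase of the selenocysteine tRNA, was 0.42 (0.0532). With length and GC trends removed these 3 were -0.54, -0.33 and 0.91.

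The other selenoproteins were the one list of the 7 with a median above 0 in the deposited values. Of 14 tested, 2 (beside 1.98% of all genes) were called higher and none (beside 4.63%) lower with all 6 libraries. At an unadjusted p under 0.05, 4 were higher and 3 lower, where 19.0% and 34.4% of all genes were, and the median was 0.28. With length and GC trends removed the median was 0.32, while that of the glutathione use list turned from -0.36 to 0.07 and that of the thioredoxin list was -0.0026. Selm had 4.87, 11.4 and 5.55 FPKM in controls and 14.4, 17.7 and 18.2 FPKM with IGF1 (log2 difference 1.18, adjusted p = 0.0472 from limma). Msrb1, a methionine sulfoxide reductase gene, had 5.35, 12.3 and 5.25 FPKM against 18.4, 19.5 and 14.9 FPKM (1.19, adjusted p = 0.0499). Sepw1 had a log2 difference of 1.35 that was not called (adjusted p = 0.0523 from limma). In all 3 every IGF1 library was above every control, as in 21.9% of all genes. With length and GC trends removed their log2 differences were 0.73, 0.68 and 0.37. Without control replicate 2, 5 of this list were called higher and 2 lower, beside 12.3% and 20.6% of all genes. The calls of Pdss1, Far1, Por, Selm and Msrb1 were also made without control replicate 2, but 0 genes of all those tested were called when any other single library was left out.

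**Figure D5:**
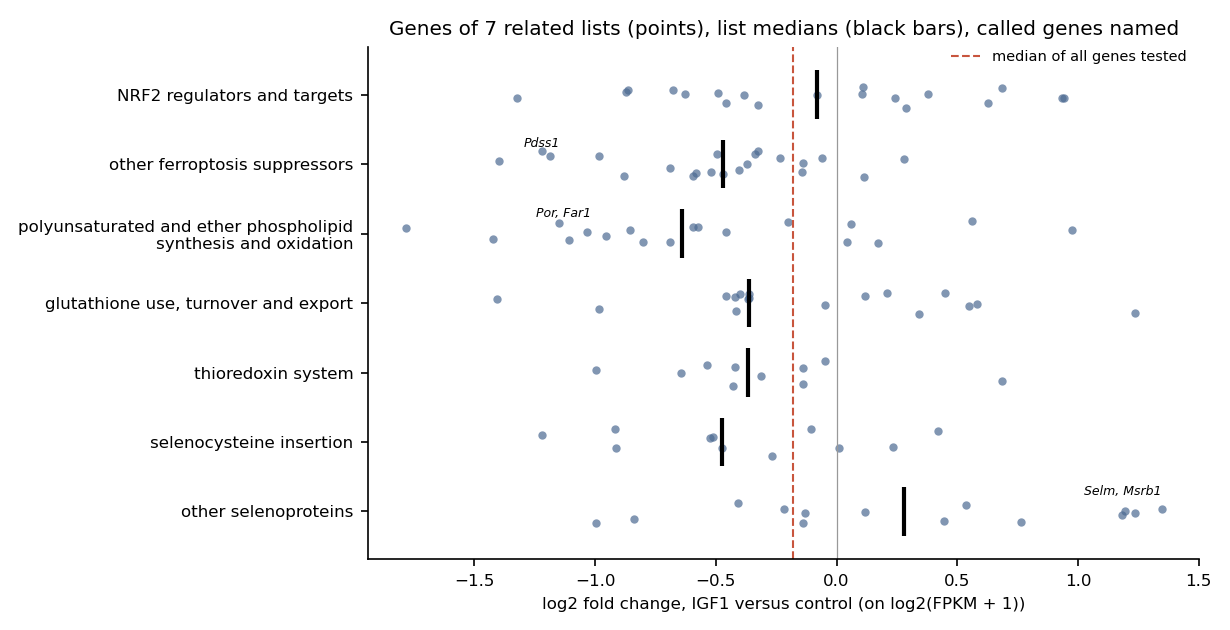
Log2 difference, IGF1 versus control (horizontal axis, log2(FPKM + 1) scale), of each tested gene (blue points) in 7 related lists (rows), with list medians as black bars and the median of all genes tested (-0.18) as a dashed line; the 5 called genes are named. Selm and Msrb1 are to the right, Pdss1, Por and Far1 to the left, and the medians of the other lists lie between -0.64 and -0.08.

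Summed levels of marker lists were set beside these values, with no test and no correction for the differing FPKM sums of the libraries. The range of the IGF1 libraries lay outside that of the controls for the neutrophil and monocyte and for the megakaryocyte and platelet lists, and overlapped it for the others. Of 17 neutrophil and monocyte markers 16 reached 1 FPKM, and their summed level was 3647 to 5827 FPKM in controls, with replicate 2 the highest, and 5848 to 5887 FPKM with IGF1. Within that list Elane (92.8, 576 and 92.4 FPKM in controls, 692 to 709 FPKM with IGF1) was higher, while Ngp (79.0, 11.5 and 78.2 FPKM against 2.22 to 3.73 FPKM) was lower, and Ly6g was at 0 in 4 libraries and at most 0.200 FPKM in the others. The sum of 10 B cell markers (8 at 1 FPKM or more) was 121 to 499 FPKM in controls and 476 to 495 FPKM with IGF1, with Ms4a1 at most 0.339 FPKM. The sum of 10 T and NK cell markers (6 at 1 FPKM or more) was 389 to 811 FPKM and 804 to 821 FPKM, most of it Nkg7, with Cd8a and Ncr1 at 0 in every IGF1 library. The sums were 42.4 to 114 FPKM against 57.4 to 63.3 FPKM for 11 erythroid markers (7 at 1 FPKM or more), and 30.3 to 67.7 FPKM against 90.8 to 100.5 FPKM for 9 megakaryocyte and platelet markers (8 at 1 FPKM or more). They were 32.9 to 61.2 FPKM against 35.4 to 37.2 FPKM for 9 stromal and endothelial markers (3 at 1 FPKM or more), and 562 to 804 FPKM against 559 to 575 FPKM for 15 HSC markers (14 at 1 FPKM or more). Control replicate 2 was at an end of the control range in each list, and the part of these cell types in the values of Gpx4, Gclc, Gsr, Txnrd1 and Lpcat3 was not tested.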

How the data were processed

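HSCs of control and IGF1-treated mice were profiled by RNA-seq, 3 libraries per group, from a stranded mRNA kit. Per the labels, the submitters' processing notes name fastp, HISAT2, StringTie and GRCm38 (mm10), whereas the study's methods name RSEM and DESeq2, so the quantifier is uncertain. The authors deposited 1 FPKM value per gene and library, and DESeq2 was not run here. Whole reads were recovered for all 15640 rows above 0 (tolerance 0.01 of a read), 11206800 to 15973834 per library. They give counting intervals and 1 alternative.

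The test was limma 3.58.1 in R 4.3.3 (lmFit, eBayes with trend, Benjamini-Hochberg adjustment), applied to log2(FPKM + 1) of IGF1 against control over all 6 libraries. Rows reaching 1 FPKM in 3 or more libraries entered it. A fold change on this scale understates that of low genes. Calls needed a fold change over 2 and an adjusted p under 0.05. The fits and the recovery of reads were tested on simulated data. Length and GC content were those of the longest GENCODE M21 transcript (99.07% of genes tested).

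The 10 genes, the 7 related lists and the 7 marker lists were chosen with earlier results of these data known. Other genes were named by rule: up to 3 per related list with the smallest p, the called genes, the 3 nearest in pattern to Gpx4 and Acsl4, and markers of the sort or of cells that move with a result. Nfe2l2, Elane, Ngp and the overlapping genes fall outside it, and 1 gene that the rule names is not reported here. The alternatives were quantile normalization, 75th percentile scaling, pseudocounts of 0.1 and 5, a filter at 5 FPKM or none, a fit with no variance trend, voom on recovered reads, library weights, a replicate block, removal of length and GC trends, and leaving out each library. Of these, 2 combinations with control replicate 2 left out were chosen after seeing the data.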

Additional observations from a re-analysis of the deposited data

How the results depend on the processing

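With all 6 libraries 0 of the 9 tested genes were called higher and 0 lower. Leaving out 1 library at a time gave 0 to 1 called higher and 0 to 4 called lower, and the calls came from leaving out control replicate 2. Library weights, which gave that library a weight of 0.014 against 1.90 to 3.64 for the others, also gave 1 higher and 4 lower. Over all 10449 genes these weights gave 1276 called higher and 2159 lower. Without control replicate 2, scaling to the 75th percentile gave 1 higher and 3 lower (Lpcat3 then missed 2-fold), and removal of length and GC trends gave 0 higher and 2 lower. Every other alternative gave 0 and 0.

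Gpx4 and Gss turned direction. Gpx4, 0.76 on the log2 scale, was -0.12 with length and GC trends removed and -0.14 (adjusted p = 0.000242 from limma) when control replicate 2 was left out as well. Gss, -0.05, was 0.27 under quantile normalization, 0.20 under 75th percentile scaling (0.25 without control replicate 2) and 0.43 with length and GC trends removed (0.57 without control replicate 2). The cause was not tested. The other 7 genes kept their direction under every alternative that could be fitted. The minimum of 5 FPKM left out Acsl4 and Aifm2.

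With a replicate block 0 genes were called. Deviations of same-numbered libraries from their group means correlated at -0.057, -0.050 and 0.006. Control replicate 2 dominates the deviations of the controls, so these values cannot tell whether the replicate numbers pair samples. Slc7a11 had only 19 to 35 reads in a library. In Gpx4, Lpcat3, Gclc, Gsr and Txnrd1 the spread between controls was wider than the counting intervals.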
